A study of Mus musculus with 13 samples.

Results

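The comparison described here sets 2-cell mouse embryos sired by acrylamide-exposed sperm against embryos sired by control sperm, and it uses 6 of the 13 libraries of the series. Acrylamide is a small reactive compound that forms in heated starchy food and is metabolised to a DNA-reactive epoxide. The AAE group holds 3 libraries of embryos fathered by Swiss males that received acrylamide by intraperitoneal injection at 25 mg/kg per day for 5 days, with sperm collected 3 days after the last injection, so that the sperm were in the epididymis at exposure. The control group holds 3 libraries of embryos fathered by Swiss males given PBS alone, and the time of sperm collection for these males is not given in the sources used here. All 6 libraries come from embryos made by in vitro fertilisation, and RNA was taken from groups of embryos, so each library is a pool. The labels do not say that the replicates came from separate males, so the tests below measure the scatter among these 6 libraries, which may be technical. The genes tested were chosen by level alone. The genes named below were picked by p, by gene list, by level or by the authors' calls, and some after their values were seen. FPKM (fragments scaled to transcript length and library depth) were summed over the transcripts of a gene, a gene absent from a library's file was set to 0, and genes whose mean over the 6 libraries reached 1 FPKM were kept. This left 9756 of the 16361 genes listed in at least 1 of the 6 libraries, and 9315 of them (95.5%) were listed in all 6. A gene with a mean under 1 FPKM in 1 group could pass only through the other group, which favours a separation.

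The mouse embryo reaches the 2-cell stage with RNA that the oocyte stored. That RNA is cleared in steps while the zygotic genome is switched on, with its main burst of transcription at this stage, and the paternal genome, delivered by the sperm, takes part in it. The embryo at this point also depends on maternal protein assemblies such as the subcortical maternal complex, on DNA repair supplied by the oocyte, and on the first rounds of ribosome production. Differences between embryos of exposed and unexposed fathers can therefore concern RNA of maternal origin or RNA made by the embryo, and RNA-seq of pools measures both together. In such bulk libraries, fewer embryos or cells of a kind and less RNA per cell cannot be told apart.

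The libraries carried the markers of their stage. The 23 of 26 listed genes of the 2-cell and genome activation list, which holds the Zscan4 cluster and Usp17l genes, summed to 3259, 3700 and 3791 FPKM in AAE embryos and to 3972, 3652 and 3625 FPKM in control embryos. Of 20 cumulus and granulosa markers, 13 were listed, and they summed to 48.7, 51.3 and 38.2 FPKM in AAE embryos against 64.4, 64.1 and 60.2 FPKM in control embryos. These sums do not overlap, and their most abundant member is Nr5a2, a nuclear receptor gene that is also a factor of genome activation. Without Nr5a2 the sums were 15.0, 17.7 and 23.0 FPKM in AAE embryos and 20.4, 23.1 and 20.03 FPKM in control embryos, which overlap, and Ptx3, Foxl2, Inha, Inhbb, Cyp11a1, Fst and Amh were not listed in any of the 6 libraries. Of 22 sperm and spermatid markers, 11 were listed, among them Odf2 at 205 to 251 FPKM in AAE embryos and 234 to 248 FPKM in control embryos. The others summed to 4.80, 7.46 and 19.1 FPKM in AAE embryos and to 4.42, 7.21 and 3.46 FPKM in control embryos, and Prm1, Tnp1, Tnp2 and Akap4 were not listed. Of 16 markers of epididymal epithelium, 7 were listed, at sums of 9.89 to 17.5 FPKM in AAE embryos and 8.81 to 19.5 FPKM in control embryos. The part of such RNA in the results below was not tested.

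The AAE libraries differed more among themselves than the control libraries did. Genes listed numbered 12563, 13914 and 11625 in AAE embryos and 13933, 13675 and 14392 in control embryos. The means were 12701 ± 1151 (SD, n = 3) in AAE embryos and 14000 ± 363 (SD, n = 3) in control embryos, and a two-sided exact permutation test gave p = 0.2, where 3 against 3 libraries cannot go below 0.1. The difference lay in large part in genes above 0 and under 0.5 FPKM, of which AAE embryos had 2364, 3010 and 2026 and control embryos 2945, 2847 and 3793 (exact permutation p = 0.3, two-sided). Genes at 1 FPKM or more numbered 9240, 9723 and 8742 in AAE embryos and 9857, 9628 and 9369 in control embryos (exact permutation p = 0.3, two-sided). In intronless genes, FPKM times length in kilobases clustered at a lowest step, taken as 1 fragment, of 0.0638 and 0.0655 in AAE libraries 1 and 2 and of 0.0652, 0.0933 and 0.0657 in the control libraries, by which control library 2 was the shallowest of these 5. In AAE library 3 only 3 genes lay at such a step, so it has no value. Pearson's r of log2(FPKM + 1) across genes was 0.868 to 0.924 between AAE libraries, 0.931 to 0.951 between control libraries and 0.868 to 0.953 between the groups. AAE library 3 had the lowest median r with the other 5 libraries (0.881) and stood apart on the first principal component, which held 43.4% of the variance. AAE library 1 stood apart on the second, which held 21.5%. The values of AAE library 3 are marked below where they decide a result.

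**Figure D1:**
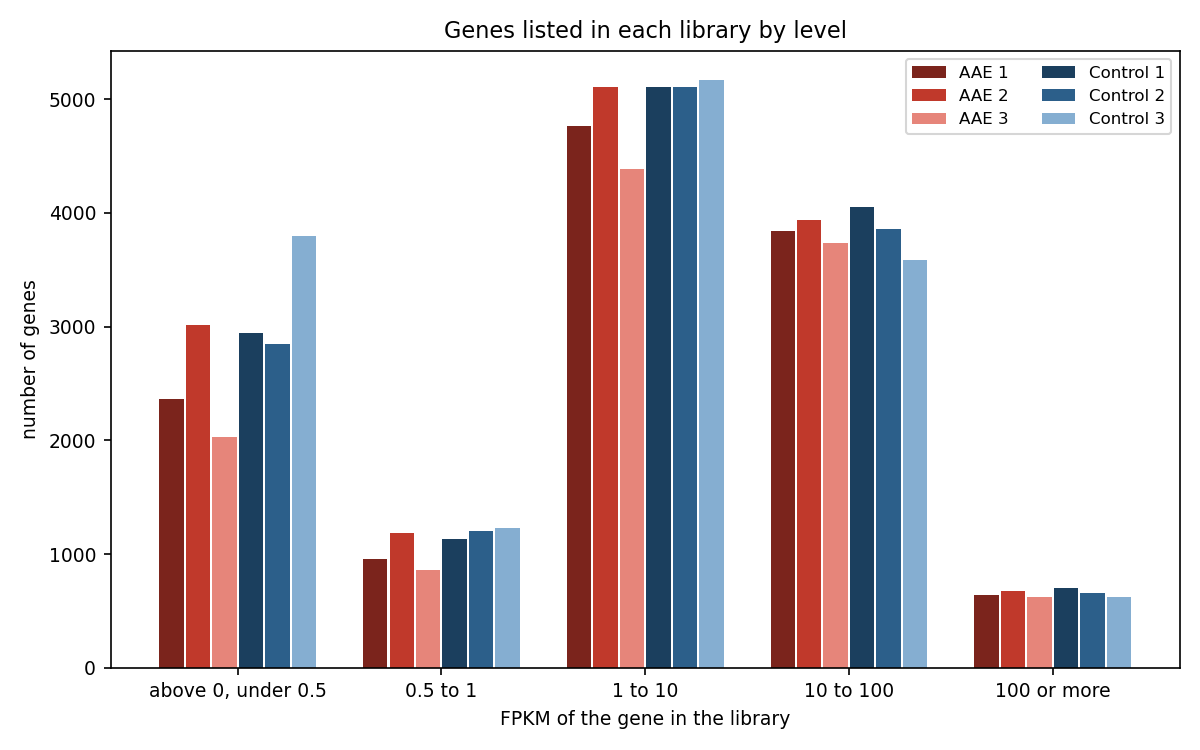
Number of genes (y axis) in each class of FPKM (x axis) for the 6 libraries, AAE in reds and control in blues, 1 bar per library. The class above 0 and under 0.5 FPKM holds between 2026 genes in AAE library 3 and 3793 genes in control library 3. The class of 1 to 10 FPKM holds between 4387 genes in AAE library 3 and 5166 genes in control library 3.

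Over all 9756 genes, no gene passed an adjusted p of 0.05 in limma, a linear model with a spread estimated across all genes, so 0% were called, and the smallest adjusted p was 0.999. At an unadjusted p under 0.05 there were 318 genes (3.26%), 134 higher in AAE embryos (1.37%) and 184 lower (1.89%). The groups did not overlap, meaning that each AAE library lay above or each below all control libraries, in 832 genes (8.53%), 367 of them higher in AAE embryos (3.76%) and 465 lower (4.77%). Values were higher in AAE embryos for 4396 genes and lower for 5360, and the median log2 fold change was -0.04. A difference of more than 1 on the log2 scale was seen for 375 genes, 129 higher and 246 lower, and the median standard error of a log2 fold change was 0.38. Fold changes are on the log2(FPKM + 1) scale, which understates the differences of genes at low levels. The genes named next are those with the smallest p in each direction, and none of them is a call: the adjusted p of each was 0.999 in limma, and over 16 alternative settings it ranged from 0.565 to 1.00 for the 24 genes listed in all 6 libraries. Their unadjusted p ran from 0.000881 (Fam134a) to 0.00875 (Tmem254b). A choice by p favours genes whose groups do not overlap, so non-overlap in these genes is no added support.

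**Figure D2:**
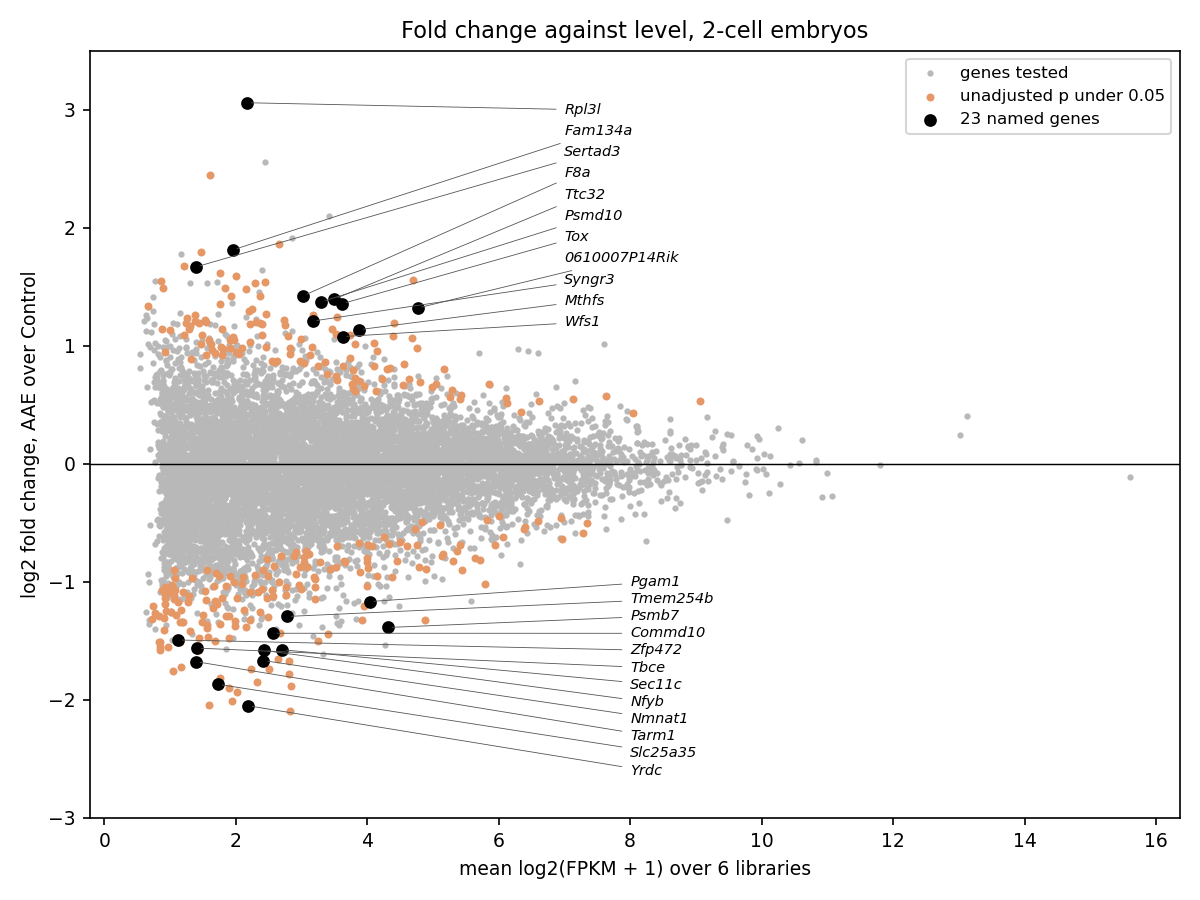
Log2 fold change of AAE over control embryos (y axis) against the mean log2(FPKM + 1) over the 6 libraries (x axis), 1 point per gene, for 9756 genes. Grey points are genes tested, orange points have an unadjusted p under 0.05, and black points are 23 named genes. The named genes lie at low and middle levels, where the cloud is widest, and the most abundant genes lie near 0.

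The genes with higher values in AAE embryos had various known roles. Fam134a (RefSeq symbol Retreg2, chr1:75142786-75147909), of the reticulophagy regulator family, had 5.30, 8.22 and 5.66 FPKM in AAE embryos against 0.95, 0.78 and 1.57 FPKM in control embryos. Each AAE library held over 3 times the highest control value, and the log2 fold change was 1.81 (SE 0.37). 0610007P14Rik (RefSeq symbol Erg28, chr12:85815447-85824893), whose yeast homolog holds enzymes of sterol synthesis together, had 29.6, 54.8 and 45.8 FPKM in AAE embryos and 20.6, 14.2 and 14.6 FPKM in control embryos. The groups did not overlap, and the log2 fold change was 1.32 (SE 0.29). Wfs1 (chr5:36966104-36988982), which encodes wolframin, a membrane protein of the endoplasmic reticulum that acts in its stress response, had 18.0, 15.1 and 18.0 FPKM in AAE embryos against 7.28, 8.68 and 6.69 FPKM in control embryos. Its libraries were close within each group and did not overlap, and the log2 fold change was 1.08 (SE 0.27).

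Psmd10 (chrX:140948425-140956711), which encodes gankyrin, an assembly chaperone of the proteasome's regulatory particle, had 12.03, 15.5 and 17.7 FPKM in AAE embryos against 5.85, 5.33 and 4.34 FPKM in control embryos. All AAE libraries were above all control libraries, with a log2 fold change of 1.37 (SE 0.30). F8a (chrX:73228306-73230795), the gene of a partner protein of huntingtin, had 13.1, 9.30 and 15.4 FPKM in AAE embryos and 4.13, 4.47 and 3.38 FPKM in control embryos. The lowest AAE value was above the highest control value, and the log2 fold change was 1.42 (SE 0.32). Tox, a DNA-binding protein of the HMG-box family known from T cell development, had 18.6, 13.1 and 26.5 FPKM in AAE embryos and 5.16, 7.10 and 8.08 FPKM in control embryos, with no overlap and a log2 fold change of 1.36 (SE 0.34). Sertad3, a transcriptional coregulator with a SERTA domain, was low in both groups, at 5.67, 2.18 and 3.86 FPKM in AAE embryos and 0.41, 0.46 and 0.56 FPKM in control embryos. The control libraries were all below 1 FPKM, and the log2 fold change was 1.67 (SE 0.42).

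Mthfs, an enzyme of folate metabolism, had 20.5, 19.6 and 22.5 FPKM in AAE embryos and 13.3, 8.81 and 5.99 FPKM in control embryos, and here the control libraries spread more than the AAE libraries (log2 fold change 1.14, SE 0.32). Ttc32, a protein with tetratricopeptide repeats, had 21.7, 10.3 and 22.9 FPKM in AAE embryos and 4.10, 6.35 and 8.01 FPKM in control embryos. Syngr3, a membrane protein of synaptic vesicles, had 17.9, 12.4 and 9.19 FPKM in AAE embryos and 5.93, 3.80 and 5.24 FPKM in control embryos. Neither gene overlapped between groups, and their log2 fold changes were 1.39 (SE 0.39) for Ttc32 and 1.21 (SE 0.34) for Syngr3.

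Rpl3l, the muscle paralog of the ribosomal protein gene Rpl3, had the largest fold change of the 24 genes, a size that rested in part on 1 library. It had 4.07, 56.2 and 6.66 FPKM in AAE embryos against 0.75, 0.51 and 0.45 FPKM in control embryos. AAE library 2 stood far above the other AAE libraries, which were still above all control libraries. The log2 fold change was 3.06 (SE 0.79) over the 3 AAE libraries and 1.99 without AAE library 2. Rpl3 itself had 32.5, 26.8 and 12.3 FPKM in AAE embryos and 35.1, 33.9 and 18.9 FPKM in control embryos, which overlap.

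**Figure D3:**
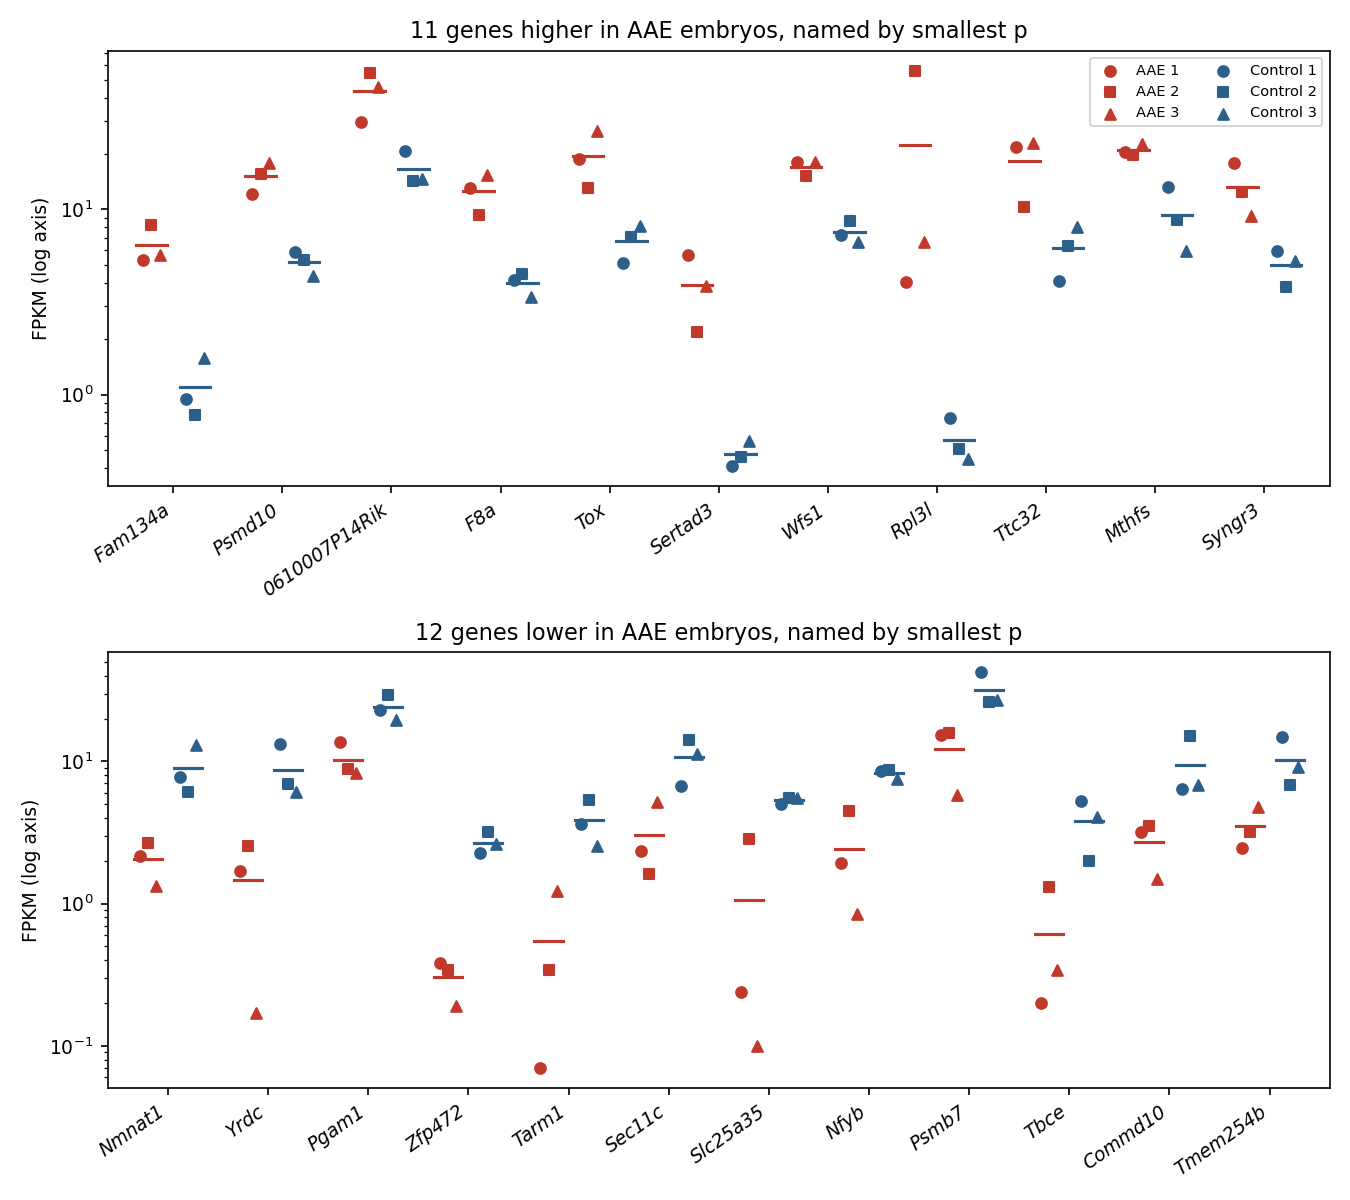
FPKM on a log axis (y axis) of 11 genes higher (upper panel) and 12 genes lower (lower panel) in AAE embryos, named by the smallest p. Each point is 1 library, red for AAE and blue for control, with the replicate shown by the shape of the point, and each line is the mean of 3 libraries. The groups do not overlap in any of the 23 genes, which their choice by p favours. The AAE points of several lower genes, such as Slc25a35 at 0.10 to 2.85 FPKM, spread widely.

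The known roles of the genes with lower values in AAE embryos varied as well. Nmnat1 (chr4:149467569-149485210), which makes NAD in the nucleus, had 2.15, 2.69 and 1.33 FPKM in AAE embryos against 7.71, 6.11 and 13.01 FPKM in control embryos. All AAE libraries were below all control libraries, and the log2 fold change was -1.67 (SE 0.39). Yrdc, an enzyme that makes the threonyl-carbamoyl modification of tRNA, had 1.69, 2.56 and 0.17 FPKM in AAE embryos and 13.3, 6.92 and 6.05 FPKM in control embryos. AAE library 3 was the lowest, and the log2 fold change was -2.05 (SE 0.50), or -1.58 without that library. Pgam1, the phosphoglycerate mutase of glycolysis, had 13.6, 8.79 and 8.26 FPKM in AAE embryos and 23.1, 29.1 and 19.7 FPKM in control embryos. Its groups did not overlap, with a log2 fold change of -1.17 (SE 0.29).

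Zfp472 (chr17:32965831-32979211), a zinc finger gene, was near the bottom of the range in AAE embryos, with 0.38, 0.34 and 0.19 FPKM against 2.26, 3.17 and 2.61 FPKM in control embryos. All AAE libraries were under 0.5 FPKM and all control libraries over 2, and the log2 fold change was -1.49 (SE 0.38). Nfyb, the B subunit of NF-Y, a factor that binds CCAAT boxes in promoters and takes part in genome activation at this stage, had 1.93, 4.50 and 0.85 FPKM in AAE embryos and 8.62, 8.71 and 7.55 FPKM in control embryos. The control libraries agreed closely while the AAE libraries spread widely, and the log2 fold change was -1.58 (SE 0.44), or -1.21 without AAE library 3. Nfya and Nfyc, the genes of the A and C subunits, overlapped between groups and are named after their values were seen. Their log2 fold changes were 0.05 (SE 0.25) for Nfya and 0.20 (SE 0.22) for Nfyc. Mean levels in AAE embryos were 27.7 FPKM for Nfya and 67.4 FPKM for Nfyc, above the 2.43 FPKM of Nfyb. Tarm1, a receptor of myeloid cells, had 0.07, 0.34 and 1.23 FPKM in AAE embryos and 3.65, 5.33 and 2.55 FPKM in control embryos, with no overlap (log2 fold change -1.68, SE 0.45).

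Sec11c, a catalytic subunit of the signal peptidase of the endoplasmic reticulum, had 2.36, 1.61 and 5.16 FPKM in AAE embryos and 6.75, 14.1 and 11.2 FPKM in control embryos (log2 fold change -1.58, SE 0.43). Psmb7, a catalytic subunit of the proteasome core, had 15.3, 15.8 and 5.80 FPKM in AAE embryos and 42.4, 26.3 and 27.1 FPKM in control embryos. AAE library 3 was again the lowest, and the log2 fold change of -1.39 (SE 0.39) was -0.96 without it. The 2 proteasome genes named by p thus had opposite directions, Psmd10 with higher and Psmb7 with lower values in AAE embryos. Slc25a35, a mitochondrial carrier, had 0.24, 2.85 and 0.10 FPKM in AAE embryos and 4.99, 5.57 and 5.50 FPKM in control embryos (log2 fold change -1.87, SE 0.52). Tbce, a folding cofactor of tubulin, had 0.20, 1.31 and 0.34 FPKM in AAE embryos and 5.29, 1.99 and 4.08 FPKM in control embryos (log2 fold change -1.56, SE 0.46). In both genes AAE library 2 came nearest to the control libraries.

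Commd10, of the COMMD family of protein sorting, had 3.19, 3.51 and 1.48 FPKM in AAE embryos and 6.39, 15.0 and 6.85 FPKM in control embryos, with a log2 fold change of -1.44 (SE 0.43). Tmem254b, a membrane protein gene with near-identical copies, had 2.48, 3.21 and 4.82 FPKM in AAE embryos and 15.0, 6.79 and 9.11 FPKM in control embryos (log2 fold change -1.29, SE 0.39). Its value is uncertain, since the estimate could assign reads to Tmem254a or Tmem254c instead, and Tmem254c was listed at 3.93 FPKM in AAE library 3, 0.92 FPKM in control library 1 and 0 in the other 4. Whether the libraries keep strand is not given in the sources used here, so reads where genes overlap cannot be told apart. Of the 28 genes named by p, 12 share their span with another RefSeq gene. The 7 partners that were tested had log2 fold changes between -0.76 and 0.40 and p of 0.241 or more in limma. Atg4a, for example, which overlaps Psmd10, had 10.98, 2.53 and 1.47 FPKM in AAE embryos and 4.71, 5.29 and 4.98 FPKM in control embryos.

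The 4 genes with the smallest p among those unlisted in at least 1 library were low throughout, and a value of 0 here means only that the file does not list the gene. S100a11, a calcium-binding protein, was at 0, 0.41 and 0 FPKM in AAE embryos against 3.82, 2.13 and 2.60 FPKM in control embryos. Tmed6, of the family of cargo receptors of the early secretory pathway, was at 0, 0.37 and 0.11 FPKM in AAE embryos and 2.91, 2.02 and 2.25 FPKM in control embryos. Both were under 0.5 FPKM in every AAE library and over 2 FPKM in every control library. With AAE means of 0.14 and 0.16 FPKM, they passed the filter on the mean only through the control group. Trappc2l, of the TRAPP complexes of vesicle tethering, had 4.56, 2.94 and 5.36 FPKM in AAE embryos and 1.53, 0 and 0.32 FPKM in control embryos. Chchd4, the oxidoreductase of mitochondrial protein import, had 3.03, 5.78 and 1.58 FPKM in AAE embryos and 0.44, 0 and 0.51 FPKM in control embryos. Trappc2l and Chchd4 were higher in all AAE libraries than in any control library. With control means of 0.62 and 0.32 FPKM, they passed the filter only through the AAE group. Of the genes above, Zfp472, Tarm1 and Tbce had AAE means under 1 FPKM, and Sertad3 and Rpl3l had control means under 1 FPKM. These genes, too, passed only through the group where they were high.

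In the authors' deposited table for the same comparison, 15 of 10179 genes (0.147%) had an adjusted p under 0.05, 11 of them higher (0.108%) and 4 lower (0.0393%) in AAE embryos. Of these 15, 14 were tested here, and 12 had an unadjusted p under 0.05 in limma, against 3.26% of all genes. In 13 the groups did not overlap, against 8.53% of all genes. The authors' values and those here describe the same embryo groups, so genes found in both are no independent support. Of the 24 named genes, 7 are among them, namely Rpl3l, Fam134a, F8a, Wfs1, 0610007P14Rik, Zfp472 and Tox. In the authors' deposited table the log2 fold change of Fam134a is 2.50 (adjusted p 0.00495), that of F8a 1.73 (adjusted p 0.0105) and that of Wfs1 1.24 (adjusted p 0.0314). Each is larger than the value computed here on the log2(FPKM + 1) scale.

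In the FPKM files, Preb, Pglyrp2 and Syt10, also called in the authors' deposited table, had 1 library apart from the rest of its group. Preb, a guanine nucleotide exchange factor of vesicle budding at the endoplasmic reticulum, had 2.94, 1.95 and 2.54 FPKM in AAE embryos against 3.20, 33.2 and 21.2 FPKM in control embryos. Control library 1 was close to the AAE libraries, and the log2 fold change was -2.09 (SE 0.69). Pglyrp2, a peptidoglycan-cleaving enzyme, had 1.41, 2.57 and 40.7 FPKM in AAE embryos and 0.31, 0.25 and 0.34 FPKM in control embryos, and its log2 fold change of 2.45 (SE 0.92) was 1.17 without AAE library 3. Syt10, a synaptotagmin, was high in control library 1 alone, with 0, 0.07 and 0.09 FPKM in AAE embryos and 9.58, 0.48 and 0.37 FPKM in control embryos. Its log2 fold change of -1.40 (SE 0.74) was -0.44 without that library.

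Exph5, an effector of Rab27 in vesicle transport, was even within groups, at 0.40, 0.21 and 0.50 FPKM in AAE embryos and 2.21, 1.67 and 1.83 FPKM in control embryos (log2 fold change -1.08, SE 0.38). Ttc39a, with tetratricopeptide repeats, had 10.2, 4.68 and 26.8 FPKM in AAE embryos and 1.59, 4.29 and 1.69 FPKM in control embryos, so AAE library 2 and control library 2 were close. Plekhn1 had 3.93, 0.06 and 4.76 FPKM in AAE embryos and 0, 0.12 and 0.08 FPKM in control embryos, which overlap through AAE library 2. Trim40, under the filter on the mean, had 2.03, 0.06 and 1.96 FPKM in AAE embryos and was listed at 0 in all control libraries. Genes high in 1 library alone occurred in both groups. Those at 5 FPKM or more in 1 library and under 0.5 in the other 5 numbered 3, 2 and 4 in the AAE libraries and 1, 3 and 0 in the control libraries.

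Since Nfyb was among the named genes, the promoters of the named genes were searched for the core of the NF-Y site, CCAAT, on both strands (CCAAT or ATTGG). Promoters are windows from 250 bases before to 50 bases after the start, from RefSeq on GRCm38.p6, and 8 of the 12 higher and 8 of the 12 lower genes had an entry. The windows below belong to the 2 genes of each direction with the smallest p that hold the motif, printed from 5′ to 3′ on the gene's strand, with the motif in capitals. They lie at chrX:140956662-140956961, chrX:73228056-73228355, chr4:149485161-149485460 and chr17:32965581-32965880.
Psmd10 (higher in AAE embryos): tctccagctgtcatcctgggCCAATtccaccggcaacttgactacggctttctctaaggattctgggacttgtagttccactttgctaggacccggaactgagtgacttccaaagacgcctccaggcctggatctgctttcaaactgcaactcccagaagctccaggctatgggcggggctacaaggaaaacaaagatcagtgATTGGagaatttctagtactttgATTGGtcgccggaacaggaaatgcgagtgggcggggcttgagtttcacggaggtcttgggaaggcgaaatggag
F8a (higher in AAE embryos): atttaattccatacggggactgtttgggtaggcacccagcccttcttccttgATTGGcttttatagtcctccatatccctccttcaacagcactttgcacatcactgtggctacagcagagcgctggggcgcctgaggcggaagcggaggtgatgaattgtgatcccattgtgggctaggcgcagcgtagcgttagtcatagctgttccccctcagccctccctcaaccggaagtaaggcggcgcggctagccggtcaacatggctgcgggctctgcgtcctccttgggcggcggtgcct
Nmnat1 (lower in AAE embryos): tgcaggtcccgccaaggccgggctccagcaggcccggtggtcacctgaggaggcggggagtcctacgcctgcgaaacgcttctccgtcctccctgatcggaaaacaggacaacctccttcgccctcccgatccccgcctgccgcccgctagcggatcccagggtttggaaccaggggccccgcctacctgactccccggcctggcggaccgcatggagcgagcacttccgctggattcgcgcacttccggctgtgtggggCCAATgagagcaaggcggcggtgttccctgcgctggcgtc
Zfp472 (lower in AAE embryos): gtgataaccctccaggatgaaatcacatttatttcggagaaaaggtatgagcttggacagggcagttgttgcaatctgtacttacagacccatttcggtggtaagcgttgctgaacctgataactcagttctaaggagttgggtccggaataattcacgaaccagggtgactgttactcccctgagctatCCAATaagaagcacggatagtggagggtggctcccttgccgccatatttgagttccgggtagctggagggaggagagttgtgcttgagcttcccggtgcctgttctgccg
The Psmd10 window holds the motif 3 times, and the others hold it 1 time each. The motif occurred in 40.0% of the 10 windows of the higher genes and in 40.0% of the 10 windows of the lower genes, against 37.4% of all 32851 windows in the table and 39.5% of those of the genes tested. Among the lower genes, the 2 Nmnat1 windows overlap and hold the same site, which is counted in both. Among genes whose groups did not overlap the shares were 40.4% for the higher and 40.5% for the lower ones. A match of 5 letters is a description of the sequence only.

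The maternal side of the embryo's RNA was described with lists chosen for this tissue. The list of the subcortical maternal complex and oocyte Nlrp genes also holds other oocyte genes. These are Npm2, Zar1, Zar1l, Dppa3, H1foo, Spin1, Oas1d and Oas1c. Of its 25 members, 21 (84.0%) had higher values in AAE embryos, against 45.1% of all genes tested. The median log2 fold change was 0.17, against -0.04. In this list 1 member (4%, against 3.26% of all genes) had an unadjusted p under 0.05 in limma, and the groups did not overlap in 2 (8%, against 8.53%). That member is Oas1d, and the 2 are Oas1d and Spin1, so neither belongs to the complex or the Nlrp family. Spin1 is named after its values were seen. Of the complex, Tle6 (log2 fold change -0.08) and Khdc3 (-0.28) were lower. Nlrp5 (0.18), Ooep (0.43), Padi6 (0.25) and Zbed3 (0.40) were higher. The count of higher members rests in part on AAE library 3, without which 14 of 25 were higher and the median was 0.06. Oas1d, an oocyte member of the oligoadenylate synthetase family, had 116, 114 and 121 FPKM in AAE embryos against 92.9, 75.3 and 75.0 FPKM in control embryos, with no overlap and a log2 fold change of 0.53 (SE 0.18). Nlrp9b had 134, 124 and 210 FPKM in AAE embryos and 90.2, 103 and 126 FPKM in control embryos, which overlap slightly. Zbed3, the most abundant member and a component of the complex, had 9587, 10188 and 11055 FPKM in AAE embryos and 9945, 7593 and 6209 FPKM in control embryos.

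Genes that store or clear maternal RNA had no common direction. In the list of maternal mRNA storage and decay, 23 of 38 members were higher in AAE embryos with a median log2 fold change of 0.04, and without AAE library 3 the count was 14 and the median -0.03. Btg4, the adaptor that triggers maternal mRNA decay, had 1517, 1726 and 1344 FPKM in AAE embryos and 1741, 1569 and 1277 FPKM in control embryos. Cnot3, a subunit of the deadenylase it recruits, had 59.7, 64.8 and 76.4 FPKM in AAE embryos and 54.6, 52.5 and 41.0 FPKM in control embryos, with no overlap and a log2 fold change of 0.44 (SE 0.21). Cpeb2, which binds the cytoplasmic polyadenylation element, had 3.13, 3.18 and 3.36 FPKM in AAE embryos and 5.57, 4.83 and 7.15 FPKM in control embryos. It was lower without overlap, at -0.68 (SE 0.33) on the log2 scale. Of 13 zona and oocyte secreted factors, 6 were higher, and Zp1, of the egg coat, had 35.5, 28.2 and 34.3 FPKM in AAE embryos and 27.0, 27.3 and 15.2 FPKM in control embryos.

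Transcripts of genome activation did not separate the groups as a whole. Of 23 genes of the 2-cell list, 9 were higher and 14 lower in AAE embryos, with a median log2 fold change of -0.07. Zfp352, the most abundant of them, had 563, 535 and 747 FPKM in AAE embryos and 608, 701 and 656 FPKM in control embryos, and the groups overlapped. Usp17la, a deubiquitinase gene of this burst, had 22.6, 31.1 and 32.7 FPKM in AAE embryos and 18.9, 15.8 and 17.9 FPKM in control embryos, without overlap (log2 fold change 0.67, SE 0.25). Spz1, a bHLH factor gene, had 48.8, 68.4 and 31.7 FPKM in AAE embryos and 89.5, 68.9 and 73.3 FPKM in control embryos. AAE library 2 nearly reached the control range, and the log2 fold change of -0.69 (SE 0.29) was -0.40 without AAE library 3. The Usp17l and Zscan4 genes are families of near-identical copies, so values of single members are uncertain.

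Of 27 factors that drive genome activation, 11 were higher and 16 lower in AAE embryos, and in 4 (14.8%) all AAE libraries were below all control libraries, against 4.77% of all genes tested. These 4 are Nfyb, Esrrb, Nr5a2 and Gabpa, and Gabpa is named after its values were seen. Esrrb, an orphan nuclear receptor, had 1.63, 1.05 and 0.86 FPKM in AAE embryos against 3.18, 3.57 and 2.44 FPKM in control embryos, with a log2 fold change of -0.90 (SE 0.38). Nr5a2, also a nuclear receptor of early activation, had 33.7, 33.6 and 15.2 FPKM in AAE embryos and 44.0, 41.1 and 40.2 FPKM in control embryos (log2 fold change -0.67, SE 0.32, and -0.30 without AAE library 3). Gabpa, an ETS factor, had 74.4, 67.4 and 37.3 FPKM in AAE embryos and 95.1, 76.5 and 78.7 FPKM in control embryos (log2 fold change -0.53, SE 0.28). AAE library 3 was the lowest in each of these 4 genes. Obox5, the most abundant factor of the list, had 1621, 1751 and 1658 FPKM in AAE embryos and 1660, 1620 and 1155 FPKM in control embryos.

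Chromatin genes had no common direction. Of 20 genes of DNA methylation and imprint protection, 10 were higher in AAE embryos. The AAE libraries lay above all control libraries in 1 of them (5%, against 3.76% of all genes) and below in 0 (against 4.77%). Dnmt3l, the cofactor of de novo methylation, had 18.1, 21.5 and 22.9 FPKM in AAE embryos and 15.2, 12.4 and 12.1 FPKM in control embryos, without overlap (log2 fold change 0.62, SE 0.25). Dppa3, which shields the maternal genome from demethylation, had 1644, 2050 and 1818 FPKM in AAE embryos and 1999, 1990 and 1430 FPKM in control embryos. Of 52 histone-modifying enzymes, 24 were higher. The AAE libraries lay above all control libraries in 2 (3.85%) and below them in 2 (3.85%), near the shares of all genes. Sirt6, a deacetylase of genome maintenance, had 6.86, 2.96 and 4.18 FPKM in AAE embryos and 2.91, 0.21 and 1.04 FPKM in control embryos, with a log2 fold change of 1.35 (SE 0.51). Ezh2, which writes the repressive H3K27 mark, had 399, 383 and 408 FPKM in AAE embryos and 302, 315 and 431 FPKM in control embryos.

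Of 23 imprinted genes tested, 8 were higher and 15 lower in AAE embryos, and in 5 (21.7%, against 4.77% of all genes) the AAE libraries lay below all control libraries. These were Mcts2, Jade1, Usp29, Impact and Igf2r, the last 3 of which are named after their values were seen. Mcts2, a paternally expressed retrogene, had 7.73, 9.94 and 4.27 FPKM in AAE embryos and 15.3, 13.3 and 12.7 FPKM in control embryos (log2 fold change -0.89, SE 0.34, and -0.59 without AAE library 3). Its span overlaps the gene H13, and reads of the 2 genes cannot be told apart there. Jade1, a subunit of a histone acetyltransferase complex, had 3.47, 3.75 and 4.08 FPKM in AAE embryos and 6.21, 5.69 and 7.10 FPKM in control embryos (log2 fold change -0.62, SE 0.32). Usp29, expressed from the paternal allele in mouse, had 31.2, 28.1 and 22.3 FPKM in AAE embryos and 39.8, 31.9 and 38.2 FPKM in control embryos. Impact, whose product blocks activation of the kinase GCN2, had 1.33, 0.52 and 2.28 FPKM in AAE embryos and 2.46, 3.39 and 2.54 FPKM in control embryos. Igf2r, the receptor that clears IGF2, was at 1.00 to 1.61 FPKM in AAE embryos and 1.84 to 2.21 FPKM in control embryos. The files hold no allele information. Of 26 genes of the small RNA machinery, 13 were higher, and Ago2, the slicing Argonaute, had 5.87, 6.83 and 5.32 FPKM in AAE embryos and 11.1, 9.71 and 7.85 FPKM in control embryos.

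Acrylamide is known as a genotoxic agent through its epoxide and depletes glutathione, so lists of DNA repair, p53 targets and detoxification were read next. Of 50 genes of double-strand break repair, 27 were higher in AAE embryos with a median log2 fold change of 0.01. Xrcc3, which acts in homologous recombination, had 14.9, 21.6 and 32.4 FPKM in AAE embryos and 13.6, 12.5 and 9.81 FPKM in control embryos, without overlap (log2 fold change 0.83, SE 0.32). Of 52 genes of excision, mismatch and bypass repair, 20 were higher and 32 lower, with a median of -0.13 that was -0.015 without AAE library 3. Rad18, the ubiquitin ligase that directs lesion bypass, had 15.2, 23.0 and 16.8 FPKM in AAE embryos and 22.7, 37.2 and 31.5 FPKM in control embryos. AAE library 2 and control library 1 overlapped, and the log2 fold change was -0.69 (SE 0.28). Gtf2h2, a subunit of the repair and transcription factor TFIIH, had 5.06, 4.19 and 2.73 FPKM in AAE embryos and 7.30, 6.60 and 8.45 FPKM in control embryos (log2 fold change -0.78, SE 0.34).

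Of 31 p53 targets and apoptosis genes, 9 were higher and 22 lower in AAE embryos, with a median log2 fold change of -0.06. Cdkn1a, the p53 target that encodes the cell cycle inhibitor p21, had 10.3, 15.3 and 10.01 FPKM in AAE embryos against 17.5, 23.0 and 18.1 FPKM in control embryos, without overlap (log2 fold change -0.69, SE 0.28). Mcl1, a survival protein of the BCL2 family, had 6.09, 9.83 and 6.94 FPKM in AAE embryos and 18.8, 12.6 and 12.9 FPKM in control embryos (log2 fold change -0.87, SE 0.31). Both were lower in every AAE library, and without AAE library 3 the list had 18 higher and 13 lower members and a median of 0.04. Of 46 glutathione, antioxidant and xenobiotic genes, 14 were higher and 32 lower, with a median of -0.14. Without control library 1 this list was even, at 23 higher and 23 lower with a median of -0.0020, and without control library 3 the median was -0.34. Nqo1, a quinone reductase and target of NRF2, had 3.19, 2.21 and 3.86 FPKM in AAE embryos and 0.98, 1.14 and 1.25 FPKM in control embryos, without overlap (log2 fold change 0.93, SE 0.38). Prdx1, a peroxiredoxin and the most abundant gene of the list, had 211, 268 and 378 FPKM in AAE embryos and 245, 259 and 151 FPKM in control embryos.

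Of 58 heat shock and unfolded protein response genes, 13 (22.4%) were higher and 45 lower in AAE embryos, against 45.1% higher among all genes, and the median log2 fold change was -0.16. The FPKM of the list summed to 2952, 3178 and 2924 in AAE embryos and to 3318, 3362 and 3513 in control embryos, and the sums did not overlap. The per-library medians of log2(FPKM + 1) minus each gene's mean over the 6 libraries did overlap. They were -0.08, 0.10 and -0.29 in AAE embryos and 0.19, 0.14 and -0.09 in control embryos. An unadjusted p under 0.05 in limma was found for 1 member (1.72%, against 3.26% of all genes). The AAE libraries lay below all control libraries in 3 members (5.17%, against 4.77%). They lay above in 2 (3.45%, against 3.76%), Edem1 and Ern1, named after their values were seen. Hsp90ab1, the constitutive cytosolic HSP90, had 365, 403 and 321 FPKM in AAE embryos and 440, 454 and 511 FPKM in control embryos (log2 fold change -0.37, SE 0.17). Hsf2, a heat shock transcription factor, had 2.26, 3.06 and 1.06 FPKM in AAE embryos and 5.35, 5.79 and 4.23 FPKM in control embryos (log2 fold change -1.02, SE 0.39). Neither gene overlapped between groups. Hsp90aa1, the inducible HSP90 and the most abundant member, had 462, 438 and 697 FPKM in AAE embryos and 459, 543 and 763 FPKM in control embryos, which overlap. Without AAE library 3, 18 members were higher and 40 lower, with a median of -0.11.

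**Figure D4:**
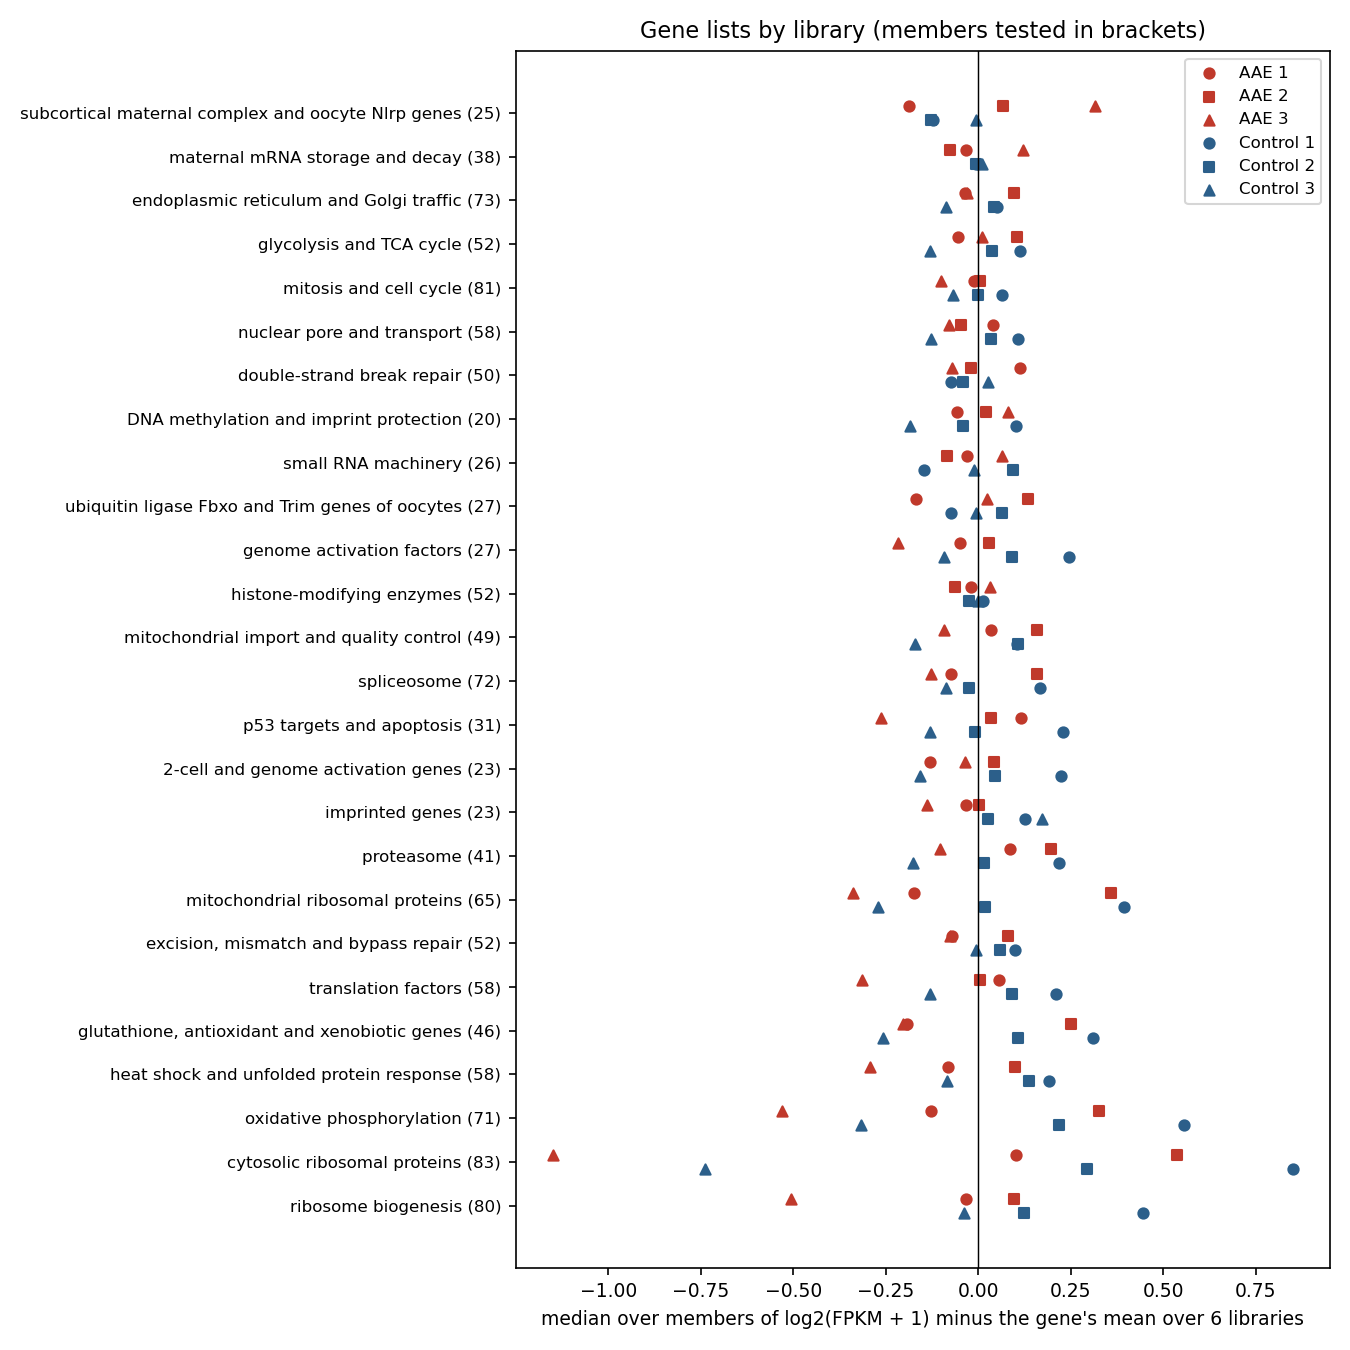
Each row is a gene list with at least 20 tested genes (number in brackets), and each point is the median over its members, in 1 library, of log2(FPKM + 1) minus the gene's mean over the 6 libraries (x axis). Red points (AAE, upper in each row) and blue points (control, lower in each row) intermingle in most rows. The cytosolic ribosomal proteins spread most, between -1.15 in AAE library 3 and 0.85 in control library 1.

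Ribosome biogenesis was the list with the lowest median among those with at least 20 tested genes. Of its 80 members, 14 (17.5%) were higher and 66 lower in AAE embryos, the median log2 fold change was -0.35, and in 8 (10%, against 4.77% of all genes) the AAE libraries lay below all control libraries. An unadjusted p under 0.05 in limma was found for 3 members (3.75%, against 3.26% of all genes), all with lower values in AAE embryos, a direction that 1.89% of all genes had at this p. Utp14a, of the small subunit processome, had 6.81, 8.47 and 1.43 FPKM in AAE embryos and 21.1, 9.44 and 16.7 FPKM in control embryos (log2 fold change -1.50, SE 0.54, and -0.89 without AAE library 3). Wdr74, which acts in assembly of the large subunit, had 0.32, 2.80 and 0.15 FPKM in AAE embryos and 5.54, 3.74 and 2.96 FPKM in control embryos (log2 fold change -1.47, SE 0.53). In both genes AAE library 2 lay just under the lowest control library. Npm1, the most abundant member and a nucleolar chaperone, had 1213, 1400 and 936 FPKM in AAE embryos and 1249, 1020 and 1789 FPKM in control embryos. The list's per-library medians were -0.03, 0.10 and -0.51 in AAE embryos and 0.44, 0.12 and -0.04 in control embryos, which overlap. Without AAE library 3 the median fold change was -0.10, with 27 members higher, and without control library 1 it was -0.21, with 25 higher.

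Of 83 cytosolic ribosomal protein genes, 20 were higher and 63 lower in AAE embryos, but this split turned with single libraries. The per-library medians were 0.10, 0.54 and -1.15 in AAE embryos and 0.85, 0.29 and -0.74 in control embryos, so both groups spanned more than 1 on the log2 scale. The median fold change was -0.29 over 6 libraries, 0.20 without AAE library 3 and 0.06 without control library 1. The summed FPKM were 4859, 6774 and 2264 in AAE embryos and 8292, 5653 and 2603 in control embryos. Oxidative phosphorylation genes followed the same order of libraries, with medians of -0.13, 0.33 and -0.53 in AAE embryos and 0.56, 0.22 and -0.32 in control embryos, and 26 of 71 were higher, with a median fold change of -0.17. Without control library 1, 37 were higher and 34 lower with a median fold change of 0.06, and without AAE library 3, 36 were higher and 35 lower with a median of 0.01. Within that list Ndufb6 of complex I had 20.6, 28 and 51.9 FPKM in AAE embryos and 19.2, 12.5 and 9.24 FPKM in control embryos, while Ndufs3, also of complex I, had 0.42, 2.94 and 0.29 FPKM in AAE embryos and 6.97, 12.9 and 2.40 FPKM in control embryos. Ndufb6 did not overlap between the groups, and Ndufs3 did.

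Among 58 translation factors, 17 were higher and 41 lower in AAE embryos, with a median log2 fold change of -0.13 and 4 members (6.90%, against 3.26% of all genes) at an unadjusted p under 0.05 in limma, all with lower values, against 1.89% of all genes in that direction. The median was -0.05 without control library 1 and -0.06 without AAE library 3. Eef1e1, a scaffold of the aminoacyl-tRNA synthetase complex, had 5.50, 6.75 and 4.69 FPKM in AAE embryos and 11.7, 15.5 and 9.35 FPKM in control embryos, without overlap (log2 fold change -0.97, SE 0.32). Of 65 mitochondrial ribosomal proteins, 29 were higher, and 34 without AAE library 3. Mrps21 had 21.4, 25.3 and 32.5 FPKM in AAE embryos and 13.9, 16.2 and 13.3 FPKM in control embryos (log2 fold change 0.81, SE 0.26), and Mrps6 had 0.84, 7.54 and 0.93 FPKM in AAE embryos and 13.5, 10.5 and 5.83 FPKM in control embryos (log2 fold change -1.74, SE 0.61). The 2 members with the smallest p of this list thus had opposite directions.

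Cell cycle genes were balanced in number but not in overlap. Of 81 members of the list of mitosis and cell cycle, 41 were higher and 40 lower in AAE embryos, with a median log2 fold change of 0.01. The AAE libraries lay below all control libraries in 9 members (11.1%, against 4.77% of all genes) and above them in 3 (3.70%, against 3.76%). Plk1, the polo-like kinase of mitotic entry, had 46.6, 45.6 and 60.3 FPKM in AAE embryos and 37.1, 33.5 and 31.7 FPKM in control embryos (log2 fold change 0.55, SE 0.21). Bub1b, a kinase-like protein of the spindle checkpoint, had 9.60, 9.03 and 6.09 FPKM in AAE embryos and 13.8, 13.8 and 13.8 FPKM in control embryos, where the control libraries were nearly equal (log2 fold change -0.70, SE 0.29). Of the other 8 lower members, Smc3 is the cohesin subunit with 28.2, 25.4 and 29.8 FPKM in AAE embryos and 35.5, 36.9 and 49.9 FPKM in control embryos, and it is named after its values were seen.

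In the other large lists, the share of higher members lay between 41.5% and 55.8%, near the 45.1% of all genes. Of 52 genes of glycolysis and the TCA cycle, 29 were higher in AAE embryos, among 41 proteasome genes 17, among 72 spliceosome genes 32, among 58 genes of nuclear pore and transport 31, among 49 genes of mitochondrial import 22, and among 73 genes of traffic through the endoplasmic reticulum and Golgi 38. Without AAE library 3, 27 of the 41 proteasome genes were higher, and without control library 3, 20 of the 52 genes of glycolysis and the TCA cycle. Taldo1, of the pentose phosphate pathway, had 2.24, 1.48 and 0.77 FPKM in AAE embryos and 4.71, 3.57 and 2.92 FPKM in control embryos (log2 fold change -0.95, SE 0.40). Nup85, a scaffold protein of the nuclear pore, had 8.78, 4.61 and 7.39 FPKM in AAE embryos and 4.48, 1.88 and 2.03 FPKM in control embryos (log2 fold change 1.09, SE 0.41). Neither gene overlapped between groups. Median log2 fold changes by chromosome ran from -0.10 on the X chromosome (371 genes) to 0.01 on chromosome 13, leaving out the Y chromosome, where 3 genes were tested.

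The spread was larger among AAE libraries, and this rested largely on AAE library 3. The mean variance of log2(FPKM + 1) was 0.451 among AAE libraries and 0.219 among control libraries, and it was larger among AAE libraries for 6404 genes (65.6%). Without AAE library 3 the mean variance among AAE libraries was 0.293, still above the control value, and the AAE variance was the larger for 45.6% of genes. With AAE library 1 or 2 left out instead, that share was 58.3% or 59.3%. A variance over 2 libraries is more often small than one over 3. So shares and medians without a library are not like for like with the 3 control libraries. The median variance without AAE library 3 was 0.0790 among AAE libraries against 0.105 among control libraries, and 0.203 among all 3 AAE libraries. At a mean of 100 FPKM or more, the mean variance was 0.143 among AAE libraries and 0.146 among control libraries over 650 genes. In AAE library 3, 317 of the genes tested were unlisted, against 123 and 23 in AAE libraries 1 and 2 and 28, 42 and 24 in the control libraries. Of these, 5 (Rpl38, Emc7, AY761184, Trappc4 and Tma16) were at 5 FPKM or more in each of the other 5 libraries, and no other library lacked such a gene.

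Among the most abundant transcripts, Gm20594, a predicted gene on chromosome 6, took 9.55 to 14.8% of all FPKM in AAE embryos and 10.5 to 17.7% in control embryos. Next came Zbed3 and Ccdc82, which had 9386, 9845 and 7896 FPKM in AAE embryos and 8986, 9331 and 5235 FPKM in control embryos. Gm7102 and Dcdc2c had the lowest fold changes of the 10 most abundant genes, both at -0.28 (SE 0.17 and 0.16). Dcdc2c, of the doublecortin domain family, had 1665, 1957 and 1661 FPKM in AAE embryos and 2059, 2086 and 2244 FPKM in control embryos, and all AAE libraries were below all control libraries. Gm7102 had 1683, 2107 and 2078 FPKM in AAE embryos and 2188, 2378 and 2514 FPKM in control embryos, also without overlap.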

How the data were processed

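Total RNA of pooled 2-cell embryos was made into RNA-seq libraries with the Nugen Trio kit, per the labels' protocols. Each library's file, as deposited by the authors, gives FPKM for single transcripts to 2 decimals and leaves out transcripts at 0. The submitters' processing notes name HISAT2 2.0.4, DESeq2 and mm10, with no role, and the program that gave the FPKM is not given in the sources used here. The table deposited by the authors holds log2 fold changes, p-values and adjusted p-values per gene, which are printed only as the authors' values. Counts were not used here, so no counting error is given, and a value of 0 can be a failed estimate.

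FPKM were summed per gene ID, log2(FPKM + 1) of genes with a mean of at least 1 FPKM was fitted with limma 3.58.1 (lmFit, eBayes with trend) in R 4.3.3, and p was adjusted by Benjamini-Hochberg over all genes tested, at 0.05, two-sided. The script was tested on simulated data. Of 16739 gene IDs in the embryo files, 16703 matched the RefSeq gene table of GRCm38.p6, which gave positions, names and overlaps, and 25 symbols that had been turned into dates took the RefSeq symbol. Named genes were the 12 higher and 12 lower with the smallest p among genes listed in all 6 libraries, the 4 with the smallest p among the others, the 2 members of each of 33 lists with the smallest p and the most abundant one, the 10 most abundant genes, and the genes called in the authors' deposited table. The text describes fewer of the list members. Of the genes named by p and of those called in the authors' deposited table, 1 each is not reported here. The members, the lists and the rule were chosen with earlier results of these data known, so a list is described by counts and medians beside those of all genes, with no test. Alternatives were a pseudocount of 0.1, other filters, scaling and weights, a replicate block, a fit with all 9 embryo libraries, and leaving out each library. Tables were made in Python 3.11.15 (pandas 2.3.3, NumPy 2.4.6) and plots with matplotlib 3.10.9.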

Additional observations from a re-analysis of the deposited data

How the results depend on the processing

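No gene passed an adjusted p of 0.05 in limma in any of the 16 alternatives, so there was no call to lose. Genes at an unadjusted p under 0.05 numbered 318, and 631 with no filter on the mean, 176 at a mean FPKM of 5 or more, 535 with array quality weights, and 139 (without control library 2) to 664 (without AAE library 2) when 1 library was left out. Genes without overlap numbered 832, and 1326 with no filter, 504 at a mean of 5 or more, and 1344 (without control library 2) to 2162 (without AAE library 2) with 1 library left out, where fewer libraries make non-overlap easier. The correlations of deviations of same-numbered libraries were 0.06, 0.0637 and 0.204, and those of libraries with other numbers ran from -0.242 to 0.193. These values do not settle whether equal replicate numbers pair the libraries. The limma fit with a replicate block gave 446 genes at an unadjusted p under 0.05, 151 higher and 295 lower. Of 91 named fold changes, 27 were over 1.5 times smaller or turned without 1 library, and of the 24 named by p only that of Rpl3l was. The fold change of Hba-a1, at 0.49, turned to -0.074 with array quality weights and ran from -0.059 to 1.13 with 1 library left out.

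List medians of log2 fold changes moved by more than the spread between libraries in 29 of 512 comparisons with an alternative. With array quality weights the median was -0.072 for histone-modifying enzymes and -0.050 for excision, mismatch and bypass repair. At a mean of 5 FPKM or more it was -0.32 for morula and blastocyst markers, -0.31 for cumulus and granulosa markers and -0.10 for sperm and spermatid markers. Cumulus markers had -1.30 with a pseudocount of 0.1 and -0.15 with no filter, and sperm markers -0.22 among genes listed in all 6 libraries. With 1 library left out, the ranges were 0.064 to 0.37 (subcortical maternal complex and oocyte Nlrp genes), -0.070 to 0.29 (zona and oocyte secreted factors), -0.087 to 0.16 (DNA methylation and imprint protection), -0.084 to 0.021 (histone-modifying enzymes), -0.27 to -0.058 (imprinted genes), -0.043 to 0.091 (double-strand break repair), -0.23 to -0.015 (excision, mismatch and bypass repair), -0.14 to 0.13 (proteasome), -0.089 to 0.0078 (mitosis and cell cycle), -0.052 to 0.10 (endoplasmic reticulum and Golgi traffic), -0.039 to 0.11 (ubiquitin ligase Fbxo and Trim genes) and -0.65 to 0.44 (epididymal epithelium markers). The cause was not tested.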
